A study of Mus musculus with 20 samples.

Results

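Ovaries of aged mice were compared with ovaries of adult mice, gene by gene, in 8 of the 20 libraries of the series. The aged group was 4 libraries from wild-type mice of 73 to 74 weeks given vehicle. The adult group was 4 libraries from wild-type mice of 27 to 28 weeks for which no treatment is named. The remaining 12 libraries were from young mice of 7 to 8 weeks, adult mice with HEP14 and aged mice with HEP14, 4 libraries each. HEP14 is a small molecule known to activate protein kinase C, and the series asks how it acts on the ovary of old mice. What the vehicle was, and whether adult mice received any, is not given in the sources used here, so age and vehicle cannot be told apart. No batch of library preparation or sequencing is named, so a batch shared by the aged libraries cannot be told apart from age either. Whether a library is 1 mouse is not stated either, so every p-value measures the spread between these libraries.

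RNA was from whole ovary, and the deposited values are scores, not expression levels. Each of 17651 genes had been scaled to a mean of 0 and an SD of 1 over the 20 libraries, so a score of 1 lies 1 SD of that gene above its mean. A difference (aged minus adult, in SD) is no fold change and cannot be ranked between genes as expression can. The largest value that a difference between 2 groups of 4 among 20 libraries can take is 3.08 SD. Total reads per library are unknown, since scaling removed them. In tissue pieces of mixed cell types, fewer cells of a type and less RNA per cell cannot be told apart.

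The mouse ovary holds a fixed reserve of primordial follicles, each an oocyte with a few flat granulosa cells, which is drawn down through life. Growing follicles add layers of granulosa cells and a theca that makes androgens, and an ovulated follicle becomes a corpus luteum that makes progesterone. With age the follicle reserve is spent, and the stroma is known to stiffen and to gather lymphocytes and lipid-laden macrophages. Oocytes depend on mitochondria for energy, and damage by oxidants and loss of protein quality control are studied as features of ovarian ageing.

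The 4 aged libraries stood apart from all others before any gene was considered. The number of genes at a value shared as the lowest by several libraries, as genes without reads would be, was 3697, 3589, 1956 and 2338 in the aged libraries, against 1218, 959, 786 and 829 in the adult libraries (difference of means 1947 genes; two-sided exact permutation test, p = 0.0286, the smallest that 4 against 4 can give). The median score over all genes lay between -0.62 and -0.28 in the aged libraries, against -0.16 to -0.06 in the adult libraries. Placed on a line where the adult mean is 0 and the aged mean is 1, each library scored with the means of the others of its group, aged libraries lay at 0.74 to 0.952, against -0.042 to 0.137 for adult libraries. Young libraries lay at -0.009 to 0.026, and aged libraries with HEP14 at 0.057 to 0.166.

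Base composition moved with the aged libraries too. Protein-coding genes without a tied lowest value were cut into 5 equal parts by the GC content of their longest transcript. The median difference was -1.46 SD in the part with the lowest GC (31.9 to 44%), then -1.16, -0.61, 0.57 and 1.44 SD in the part with the highest (55.7 to 72.8%). The median score of the highest part exceeded that of the lowest by 1.29 to 2.41 SD in the aged libraries, against -0.83 to -0.01 SD in the adult libraries. Genes were also lower the longer their transcripts, with a median difference of 0.66 SD in the shortest part (204 to 2027 bases) and -1.14 SD in the longest (over 5405 bases). After each library had been adjusted for GC content and transcript length, an alternative chosen after seeing the data, 9451 of 17630 genes were called, 4245 higher and 5206 lower. The adjustment was fitted over all these genes, tied lowest values included. It accounted for 2.58 to 4.50% of the variance of scores in the aged libraries, against 4.25 to 12.3% in the adult libraries. Whether it removed the whole trend with GC content among protein-coding genes was not tested. The part of base composition, length and tied lowest values in the results below was not tested.

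**Figure D1:**
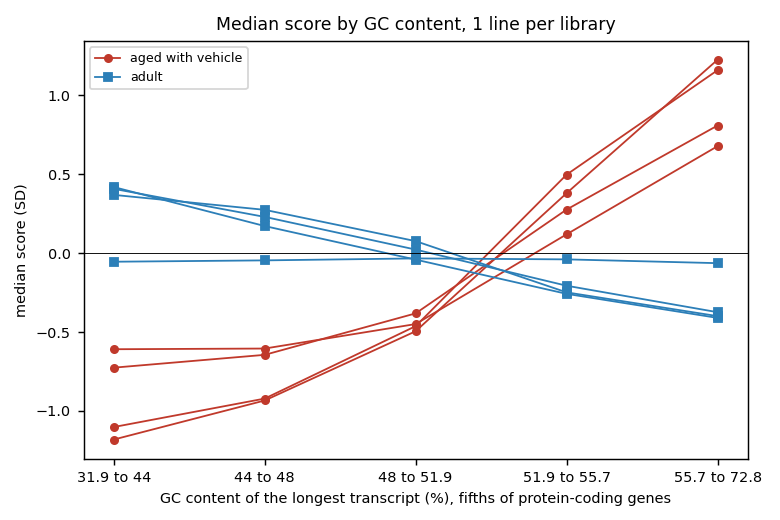
Median score (SD) of protein-coding genes in 5 parts of rising GC content (x axis, %), 1 line per library. The 4 aged lines climb from between -1.18 and -0.61 to between 0.68 and 1.23, and 3 of the 4 adult lines run the other way, the fourth being flat near -0.05.

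About as many genes were called between aged and adult ovaries as were not, and a gene not called is not shown to be unchanged. The spread was estimated in each group separately, since it was unequal, and 8742 of 17651 genes (49.5%) passed at an adjusted p under 0.05 in limma. Of these, 3810 (21.6% of the table) were higher and 4932 (27.9%) were lower in aged ovaries. In 8748 genes (49.6%) all 4 aged libraries lay on 1 side of all 4 adult libraries, above them in 3848 (21.8%) and below them in 4900 (27.8%). The median difference over all genes was -0.26 SD and the median absolute difference 1.65 SD. Setting the library medians equal added 0.35 SD to every difference and turned the split of calls to 52.8% higher, against 43.6% as reported. Counts in a gene group are to be read against these shares, 21.6% higher and 27.9% lower, and a count near them sets no group apart.

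The 12 largest rises, of similar size, were taken among called genes with no tied lowest value whose aged and adult libraries did not overlap. Predicted genes, Rik clones, pseudogenes, receptor and antibody segments and small RNAs were left out of that ranking. Lsp1, an actin-binding protein of leukocytes (chromosome 7, 142460809 to 142494867, plus strand, in the GENCODE annotation of GRCm38), had scores of 1.74, 1.63, 1.53 and 1.88 in the aged libraries, against -0.89, -1.39, -0.76 and -0.87 in the adult libraries, a difference of 2.67 ± 0.17 SD (± SE throughout; adjusted p 1.63e-04). Parp3, which adds ADP-ribose at sites of DNA breaks, scored 1.70, 1.91, 1.68 and 1.79 in the aged libraries, against -1.02, -1.28, -0.77 and -0.40 in the adult libraries (difference 2.64 ± 0.19 SD, adjusted p 3.45e-04). Aged and adult libraries of both genes were at least 2 SD apart at their nearest. Zcwpw1, a histone reader of meiotic prophase, differed by 2.64 ± 0.22 SD, and Pet100, an assembly factor of cytochrome c oxidase, by 2.63 ± 0.34 SD. Speg, a kinase of striated and smooth muscle, scored 2.06, 1.76, 1.93 and 1.80 in the aged libraries, against -0.96, -0.84, -0.54 and -0.62 in the adult libraries (2.63 ± 0.15 SD). Others among the 12 largest rises were Htra2, a mitochondrial protease (2.66 ± 0.27 SD), Kri1, Zkscan6, Snhg20, Glb1l, Ccdc9 and Trim41. Trim41 lost its call in 1 alternative, with an adjusted p of 0.0592 without aged library 3.

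The 12 largest falls were of similar size. Opa1, a GTPase that fuses the inner mitochondrial membrane, had scores of -2.46, -1.89, -1.18 and -1.54 in the aged libraries, against 1.17, 1.29, 0.80 and 0.07 in the adult libraries (-2.60 ± 0.35 SD, adjusted p 8.94e-04). Gpd2, the mitochondrial glycerol-3-phosphate dehydrogenase, fell to -1.42, -2.22, -1.66 and -1.92 in the aged libraries, against 1.11, 1.27, 0.55 and 0.37 in the adult libraries (-2.63 ± 0.26 SD). March5, a ubiquitin ligase of the outer mitochondrial membrane, differed by -2.63 ± 0.24 SD. That no aged library reached an adult one was required of all 12 by the rule that chose them, as for the rises. Scd2, a fatty acid desaturase, scored -2.39, -1.54, -1.66 and -1.57 in the aged libraries, against 1.08, 1.01, 0.85 and 0.30 in the adult libraries. Lztfl1, a ciliary trafficking protein, showed the largest fall of a gene without a tied lowest value (-2.68 ± 0.37 SD), and its adult libraries were uneven at 1.16, 1.40, 1.56 and -0.06. Ubxn6, Ccni, Lin7c, Msantd4, Tmem41b, Usp46 and Aftph made up the 12, between -2.64 and -2.59 SD.

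**Figure D2:**
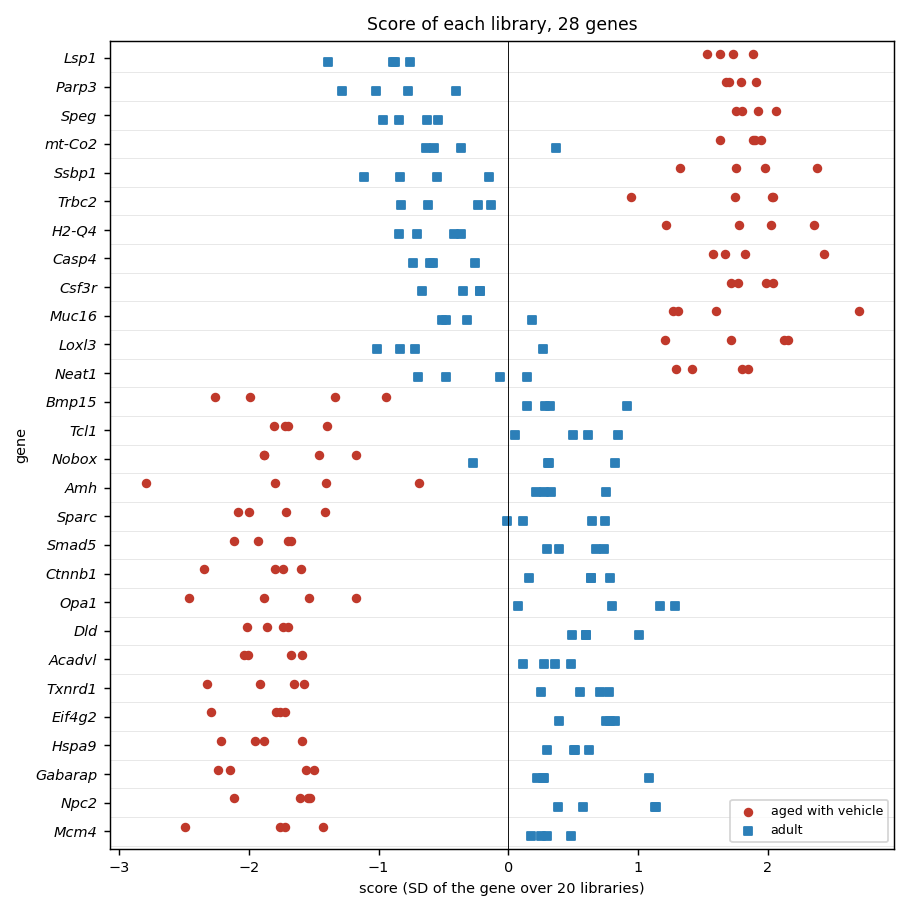
Score (SD, x axis) of each of the 4 aged and 4 adult libraries for 28 genes named in the text (y axis), aged circles above adult squares. In every gene shown the 4 aged libraries lie on 1 side of the 4 adult libraries, as in 49.6% of all genes. Named genes with overlapping groups, such as Foxl2, Ddx4 and Igf1, are not shown, so this separation was part of the choice. Amh and Muc16 show the widest spread among aged libraries.

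Genes of the oocyte were lower in aged ovaries. Of 9 genes for the egg coat and oocyte growth factors in the table, 8 fell and none rose, with a median difference of -1.90 SD. Of 20 maternal-effect genes, whose products are stored in the egg for the embryo, 16 fell and 1 rose (median -1.77 SD). Of 13 genes of the primordial oocyte, 7 fell and none rose (median -0.91 SD, against -0.26 SD over all genes). Setting the library medians equal left 3 calls in the primordial list, and leaving out aged library 4 left 4. Genes with a tied lowest value made up 3, 9 and 9 of the members of these 3 lists.

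Zp2, a glycoprotein of the zona pellucida that surrounds the egg, had scores of -2.51, -1.69, -1.09 and -1.34 in the aged libraries, against 0.37, -0.16, 0.80 and 0.53 in the adult libraries (-2.04 ± 0.34 SD, adjusted p 0.0037). Bmp15, a growth factor that oocytes send to granulosa cells, had -2.27, -1.99, -0.94 and -1.34 in the aged libraries, against 0.32, 0.28, 0.92 and 0.14 in the adult libraries (-2.05 ± 0.32 SD). Its partner Gdf9 had -1.10, -2.67, -0.93 and -1.78 in the aged libraries, against 0.30, 0.02, 0.58 and 0.48 in the adult libraries, and its call (adjusted p 0.0138) was lost without aged library 4 (0.0733). All 4 aged libraries lay below all adult ones in these 3 genes, with aged library 3 the highest or near it. The same held in 27.8% of all genes, and list members were mostly named for a small p. Astl, the protease that hardens the egg coat after fertilization, differed by -1.82 ± 0.28 SD. Tcl1, a kinase co-activator of oocytes and early embryos, scored -1.81, -1.70, -1.40 and -1.72 in the aged libraries, against 0.501, 0.05, 0.85 and 0.62 in the adult libraries (-2.16 ± 0.19 SD, adjusted p 3.03e-04). Nlrp9b was at its lowest value of -1.57 in 3 of the 4 aged libraries, and its adult libraries lay between 0.12 and 0.72. It and Nlrp4f (-2.01 ± 0.22 SD) have close paralogs among which reads can be shared.

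Transcription factors of the follicle reserve were uneven. Nobox, which keeps primordial oocytes alive, scored -1.18, -1.89, -1.46 and -1.89 in the aged libraries, against 0.31, -0.27, 0.82 and 0.30 in the adult libraries (-1.89 ± 0.26 SD, adjusted p 9.92e-04). Figla, needed to form primordial follicles, was at its lowest value of -1.09 in 3 aged libraries and at -0.84 in aged library 3, against 0.11, -0.502, 0.08 and -0.06 in the adult libraries. Its difference of -0.94 ± 0.17 SD was not called with library medians set equal (adjusted p 0.122). Tdrd1, which protects germ cells against transposons, fell by 1.65 SD. Ddx4, the germ cell RNA helicase, did not pass (adjusted p 0.673): aged libraries 1 and 2 were at its lowest value of -1.87, aged libraries 3 and 4 at 0.44 and 1.34, and the adult libraries between -0.96 and 0.54.

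Granulosa genes fell in 6 of 17 members and rose in none, with all 17 differences below 0 and a median of -1.45 SD. The aged libraries divided: the list's mean score was -2.02 and -2.14 in aged libraries 1 and 2 and -0.30 in both aged libraries 3 and 4, against 0.10 to 0.42 in the adult libraries. The count was 3 without aged library 2 or 3, and 0 without aged library 4. Amh, the hormone of growing follicles by which the ovarian reserve is gauged, had scores of -2.79, -1.80, -0.69 and -1.41 in the aged libraries, against 0.27, 0.22, 0.33 and 0.76 in the adult libraries. Its difference of -2.07 ± 0.42 SD had an adjusted p of 0.0168, which became 0.0722 without aged library 2 and 0.0711 without aged library 4. Kitl, the granulosa ligand that wakes oocytes, scored -1.18, -2.61, -0.77 and -2.05 in the aged libraries, against 0.41, 0.56, -0.23 and 0.01 in the adult libraries (-1.84 ± 0.42 SD), and its adjusted p without aged library 4 was 0.0868. Foxl2, which keeps granulosa cells female, did not pass: -1.31, -0.07, -0.42 and 1.69 in the aged libraries, against 0.81, -0.02, 0.52 and -1.07 in the adult libraries. The groups overlapped.

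Steroid and luteal genes were mostly not called. Of 11 theca and steroid synthesis genes, 3 fell and 1 rose, and of 12 luteal genes, 3 fell and none rose, near the shares of the whole table. The luteal count was 0 without aged library 3 or 4 and 5 without aged library 2, and its list mean in aged library 2 (0.63) lay among the adult libraries (0.32 to 0.75). Srd5a1, which reduces testosterone, fell (-1.96 ± 0.24 SD, adjusted p 9.12e-04), with -2.10, -2.07, -1.33 and -1.40 in the aged libraries, against 0.40, -0.17, 0.27 and 0.44 in the adult libraries. Fdxr, the reductase that feeds electrons to mitochondrial steroid enzymes, rose (1.88 ± 0.31 SD), with an adjusted p of 0.0535 without aged library 4, while its partner Fdx1 fell by 1.11 SD, a call not kept with library medians set equal (0.0928). Star, which moves cholesterol into mitochondria, did not pass, with -0.79, 1.03, -0.58 and -0.04 in the aged libraries, against 1.53, 0.96, -0.03 and 0.14 in the adult libraries (adjusted p 0.228, and 0.0476 without aged library 2). Nor did the luteinizing hormone receptor Lhcgr, at 0.75, 1.27, -0.19 and 0.90 in the aged libraries, against 0.78, 1.30, 0.41 and -0.56 in the adult libraries. Parm1 of the corpus luteum fell (-2.004 ± 0.51 SD), and its adjusted p was 0.0676 and 0.0649 without aged library 3 or 4.

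Ovulation genes fell in 3 of 11 members (1 with unmoderated variances), near the 27.9% of all genes called lower. Btc, an EGF-family ligand of the ovulatory cascade, scored -1.82, -1.82, -0.74 and -1.40 in the aged libraries, against 0.55, -0.24, 0.40 and -0.77 in the adult libraries (-1.43 ± 0.35 SD). The progesterone receptor Pgr did not pass (-1.07, -0.45, 0.38 and -0.84 in the aged libraries, against -0.52, -0.59, -0.64 and -0.70 in the adult libraries). Estrogen receptor Esr1 fell by 1.29 SD, but not after adjustment for GC content and length (adjusted p 0.121).

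The ovarian surface showed rises in 3 of 13 markers and a fall in 1, with 6 of 13 differences below 0. The rises were near the 21.6% of all genes called higher, and the fall was below the 27.9% called lower. The list mean of aged library 1 was 1.31 and those of the other aged libraries lay between -0.57 and -0.12, against -0.54 to 0.05 in the adult libraries. Muc16, a mucin of the surface mesothelium, had 2.70, 1.60, 1.27 and 1.30 in the aged libraries, against -0.51, 0.18, -0.32 and -0.48 in the adult libraries (2.001 ± 0.35 SD, adjusted p 0.00641). Msln, which binds it, and Upk1b rose by 2.19 and 1.89 SD, and their adjusted p was 0.0593 and 0.097 without aged library 2, and 0.0503 and 0.116 without aged library 4. Without aged library 3 that of Upk1b was 0.0736. The count of rises was 1 without aged library 4, and that of falls 3 without aged library 1. Lrrn4, another mesothelial gene, went the other way, at -2.34, -1.91, -0.85 and -0.81 in the aged libraries, against 0.86, 1.12, 0.16 and -0.14 in the adult libraries (-1.98 ± 0.44 SD).

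Of 25 collagens and matrix proteins, 7 fell and 3 rose, with 19 differences below 0 and a median of -0.77 SD. The falls were near the 27.9% of all genes called lower, and the rises were below the 21.6% called higher. The list means of aged and adult libraries overlapped. With 1 variance shared by both groups 11 fell, as after GC and length adjustment (44% of the list, against 29.5% of all genes). Leaving out aged library 3 or 4 left 1 of the 3 rises. Sparc, a collagen-binding matrix protein, had scores of -2.08, -1.42, -1.72 and -1.997 in the aged libraries, against 0.65, 0.74, 0.12 and -0.01 in the adult libraries (-2.18 ± 0.23 SD, adjusted p 3.53e-04). Col4a1 of basement membranes had -2.19, -1.17, -1.75 and -2.09 in the aged libraries, against 0.98, 0.66, 0.32 and -0.05 in the adult libraries (-2.28 ± 0.30 SD), and Bgn and Fbn1, a small proteoglycan and the main microfibril protein, fell by 2.12 and 1.82 SD. Fibrillar collagen Col1a1 did not pass, at -0.40, -1.87, -0.72 and -1.24 in the aged libraries, against 0.10, -0.35, -0.07 and -0.70 in the adult libraries. Stromal marker Pdgfra did not pass either (-1.29 ± 0.48 SD, adjusted p 0.0739).

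Of 24 genes of matrix turnover, 8 fell and 4 rose. Loxl3, which cross-links collagen and elastin, rose to 2.16, 1.72, 2.13 and 1.20 in the aged libraries, against -0.83, -1.01, -0.72 and 0.27 in the adult libraries (2.38 ± 0.33 SD, adjusted p 9.36e-04). Timp3, an inhibitor of metalloproteinases held in the matrix, fell to -1.10, -1.96, -2.15 and -1.66 in the aged libraries, against 0.66, 0.90, -0.15 and 0.13 in the adult libraries (-2.10 ± 0.30 SD). Plau, the urokinase that activates plasminogen, fell by 2.13 SD and Adamts4 by 1.21 SD. The count of falls was 4 without aged library 3 and 3 without aged library 4.

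Signalling genes of the follicle and stroma were lower more often than higher. Of 27 Wnt genes 16 fell and 3 rose (median -1.63 SD), of 24 TGF-beta and BMP genes 10 fell and 2 rose (1 without aged library 4 or adult library 1, 3 or 4), of 26 IGF and insulin genes 11 fell and 3 rose, and of 9 hedgehog genes 4 fell and none rose (1 rose without aged library 1 or 2). Smad4, the shared partner of all receptor SMADs, scored -2.12, -1.82, -1.97 and -1.37 in the aged libraries, against 0.93, 0.64, 0.30 and 0.13 in the adult libraries (-2.32 ± 0.23 SD), and Smad5, a BMP effector, differed by -2.38 ± 0.17 SD (adjusted p 1.60e-04). Among ligands, Bmp6, which oocytes and granulosa cells release, fell to -1.94, -2.19, -1.39 and -1.74 in the aged libraries, against 0.23, 0.37, 0.18 and 0.71 in the adult libraries. Ctnnb1, beta-catenin, fell to -1.60, -1.80, -2.34 and -1.74 in the aged libraries, against 0.78, 0.64, 0.64 and 0.16 in the adult libraries (-2.42 ± 0.21 SD). Wnt2, a granulosa ligand, was at its lowest value of -1.49 in all 4 aged libraries and between -0.14 and 0.31 in the adult libraries. In the hedgehog pathway, through which granulosa cells recruit theca, the receptor Ptch1 differed by -2.19 ± 0.27 SD, the transducer Smo by -2.05 ± 0.21 SD and the inhibitors Hhip and Sufu by -2.16 and -2.27 SD.

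Within insulin and IGF signalling, members fell at several levels and 1 brake rose. Irs1, the adaptor below the receptor, had -1.88, -2.10, -1.58 and -1.49 in the aged libraries, against 0.70, 0.53, 0.33 and -0.10 in the adult libraries (-2.12 ± 0.22 SD). Pdpk1 and Akt1, kinases below it, differed by -2.40 ± 0.25 and -2.17 ± 0.23 SD. Foxo3, the factor that holds primordial follicles dormant, fell by 2.08 SD (adjusted p 0.00109). Tsc1, a brake on mTOR and on follicle activation, rose to 2.07, 1.61, 1.35 and 2.08 in the aged libraries, against -0.45, -0.27, -0.40 and -1.31 in the adult libraries (2.39 ± 0.27 SD). Igf1 itself did not pass, with 1.15, -1.95, -0.11 and -0.31 in the aged libraries, against -0.03, -0.51, 0.71 and -1.45 in the adult libraries, a difference of 0.02 ± 0.69 SD.

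Genes of T and NK cells were higher in aged ovaries. Of 20 T and NK cell markers 10 rose, none fell, and all 20 differences were above 0 (median 1.95 SD). The list's mean score was 1.16, 2.72, 0.51 and 1.18 in the aged libraries, against -0.49, -0.22, -0.67 and 0.01 in the adult libraries. Leaving out aged library 1 or aged library 4 brought the count to 5, and after GC adjustment it was 14. Trbc2, a constant segment of the T cell receptor beta chain, scored 2.03, 2.04, 0.95 and 1.75 in the aged libraries, against -0.82, -0.24, -0.62 and -0.13 in the adult libraries (2.14 ± 0.29 SD, adjusted p 0.00154). Its near-identical neighbour Trbc1, with which it can share reads, differed by 2.22 ± 0.33 SD. Cd2, an adhesion receptor of T and NK cells, had 1.73, 2.76, 0.94 and 1.73 in the aged libraries, against -0.45, -0.43, -0.53 and -0.13 in the adult libraries, with an adjusted p of 0.0537 without aged library 4. The signalling chain Cd3e did not pass (adjusted p 0.0666), at 0.80, 2.48, 0.02 and 2.004 in the aged libraries, against -0.69, 0.28, -0.81 and 0.23 in the adult libraries, and had an adjusted p of 0.041 without aged library 3.

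B and plasma cell genes rose in 3 of 17 members and fell in 1, both below the shares over all genes (21.6% higher, 27.9% lower). The list mean was 2.73 in aged library 4, far above 0.91, 0.38 and 0.11 in the other aged libraries. It was -0.37 to -0.01 in the adult libraries. The count of rises was 1 without aged library 1 or 2, and 13 in a fit of all 20 libraries. Iglc2, an immunoglobulin light chain segment with close copies, had 2.04, 1.55, 0.79 and 2.76 in the aged libraries, against -0.53, -0.28, -0.27 and -0.86 in the adult libraries (2.27 ± 0.40 SD). Jchain, of plasma cells, did not pass, at 0.27, 0.79, 0.03 and 3.27 in the aged libraries, against -0.09, 0.92, -0.12 and -0.26 in the adult libraries.

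Antigen presentation genes were called in class I and not in class II. Of 16 genes of MHC class I presentation, 10 rose and 1 fell (median 2.03 SD), with 5 rises left without aged library 1 or 4. H2-Q4, a class I gene with close paralogs, scored 2.35, 2.02, 1.22 and 1.78 in the aged libraries, against -0.70, -0.42, -0.84 and -0.36 in the adult libraries (2.43 ± 0.26 SD, adjusted p 9.16e-04). Tap2, which pumps peptides to class I molecules, had 2.41, 2.12, 1.20 and 1.51 in the aged libraries, against -0.71, -0.65, -0.41 and 0.15 in the adult libraries. None of 10 class II genes passed in limma, although 9 of 10 differences were above 0, and 2 passed without adult library 4. H2-DMb1, which loads class II peptides, had 1.73, 0.28, 0.44 and 2.29 in the aged libraries, against -0.31, -0.35, -0.96 and 0.36 in the adult libraries (adjusted p 0.0527, and 0.0377 without adult library 4). With 1 variance for all 20 libraries 4 class II genes passed. Whether class I and class II differ in their change was not tested.

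Myeloid markers were largely not called. Of 15 macrophage genes 2 rose and none fell, and the list mean in aged library 1 was 1.61, against -0.41 to 0.23 in the other aged libraries and -0.94 to 0.33 in the adult libraries. Only 1 rise was left without aged library 2 or 4 or adult library 3, and 3 genes fell without aged library 1. Fcer1g, a signalling chain of Fc receptors, rose to 1.77, 0.98, 0.93 and 1.43 in the aged libraries, against -0.66, -0.70, -0.97 and 0.42 in the adult libraries (1.76 ± 0.33 SD). Cx3cr1, the fractalkine receptor, did not pass (adjusted p 0.0507, and 0.0476 and 0.0479 without adult library 1 or 4), at 2.23, 2.59, -0.10 and 0.55 in the aged libraries, against -0.47, -0.81, -1.15 and -0.60 in the adult libraries. Adgre1, which encodes F4/80, had 0.10, -1.22, -1.42 and -0.505 in the aged libraries, against 0.58, -0.10, -1.51 and 0.94 in the adult libraries, with overlapping groups and an adjusted p of 0.0457 without adult library 3. Of 15 genes of lipid-laden and multinucleate macrophages, 1 rose and 2 fell, with 4 falls without aged library 1 and 1 without aged library 2 or 4 or adult library 1, 2 or 4. No rise was left without aged library 1, 2 or 4 or adult library 3. Gpnmb, their common marker, did not pass (1.63, 0.42, -0.39 and -0.25 in the aged libraries, against 0.58, 0.89, -0.78 and 0.53 in the adult libraries), and Plin2, which coats lipid droplets in many cell types, fell by 2.14 SD. Of 9 granulocyte and mast cell genes 1 rose and 1 fell, the mast cell receptor chain Fcer1a (-1.08 ± 0.32 SD, adjusted p 0.0473), which was at its lowest value in all 4 aged libraries and was not called without aged library 2, 3 or 4 or adult library 1, 2 or 4. Csf3r, the receptor for granulocyte colony-stimulating factor, rose evenly, to 1.99, 1.77, 2.04 and 1.72 in the aged libraries, against -0.35, -0.22, -0.67 and -0.22 in the adult libraries (2.25 ± 0.15 SD, adjusted p 1.60e-04).

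Among inflammatory mediators, 12 of 25 interleukin and inflammasome genes rose and 4 fell (median 1.49 SD). Casp4, the caspase that senses lipopolysaccharide, had scores of 2.44, 1.67, 1.57 and 1.82 in the aged libraries, against -0.60, -0.58, -0.73 and -0.26 in the adult libraries (2.42 ± 0.22 SD, adjusted p 4.03e-04). Gsdmd, the pore protein it cleaves, had 2.46, 2.09, 1.46 and 1.43 in the aged libraries, against -0.81, -0.65, -0.36 and -0.17 in the adult libraries, and the sensor Nlrp1b differed by 2.41 ± 0.27 SD. The sensor Nlrp3 did not pass: aged library 1 was at 3.84 and the other aged libraries between -0.03 and 0.97, against -0.25, -0.47, -0.72 and 0.41 in the adult libraries. Of 21 interferon-response genes 8 rose (5 without aged library 1) and 1 fell. Oas2, which makes the activator of RNase L, differed by 2.20 ± 0.33 SD, and the transcription factor Irf1 had 1.23, 2.59, 1.23 and 1.53 in the aged libraries, against -0.94, -0.17, -0.91 and -0.40 in the adult libraries.

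Chemokine and complement genes went both ways, and neither list exceeded the shares over all genes (21.6% higher, 27.9% lower). Of 24 chemokine ligands and receptors 4 rose and 5 fell, with 1 rise left without aged library 1 or 4 and 2 left without aged library 3 or adult library 1 or 2. Ackr3, a scavenging receptor for Cxcl12, fell to -1.84, -1.65, -1.79 and -2.06 in the aged libraries, against 0.56 to 0.57 in the adult libraries (-2.40 ± 0.13 SD), and Ccl9 fell by 1.98 SD. Of 17 complement genes 3 rose and 3 fell; 1 rise was left without aged library 3 or 4, and 0 and 1 falls without aged library 3 and aged library 4. Cfp (properdin) had 2.51, 1.83, 1.45 and 1.60 in the aged libraries, against -0.49, -0.53, -0.38 and -0.21 in the adult libraries. Senescence genes rose in 1 of 17 members and fell in 6 (3 without aged library 3). The count of rises was 2 without aged library 1 and 0 without aged library 2 or 4 or adult library 1, 2 or 3. Lmnb1, a nuclear lamina gene whose loss marks senescent cells, fell by 1.91 SD (adjusted p 0.054 without aged library 3), and the cell-cycle inhibitor Cdkn1b also fell (-2.01 ± 0.49 SD).

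**Figure D3:**
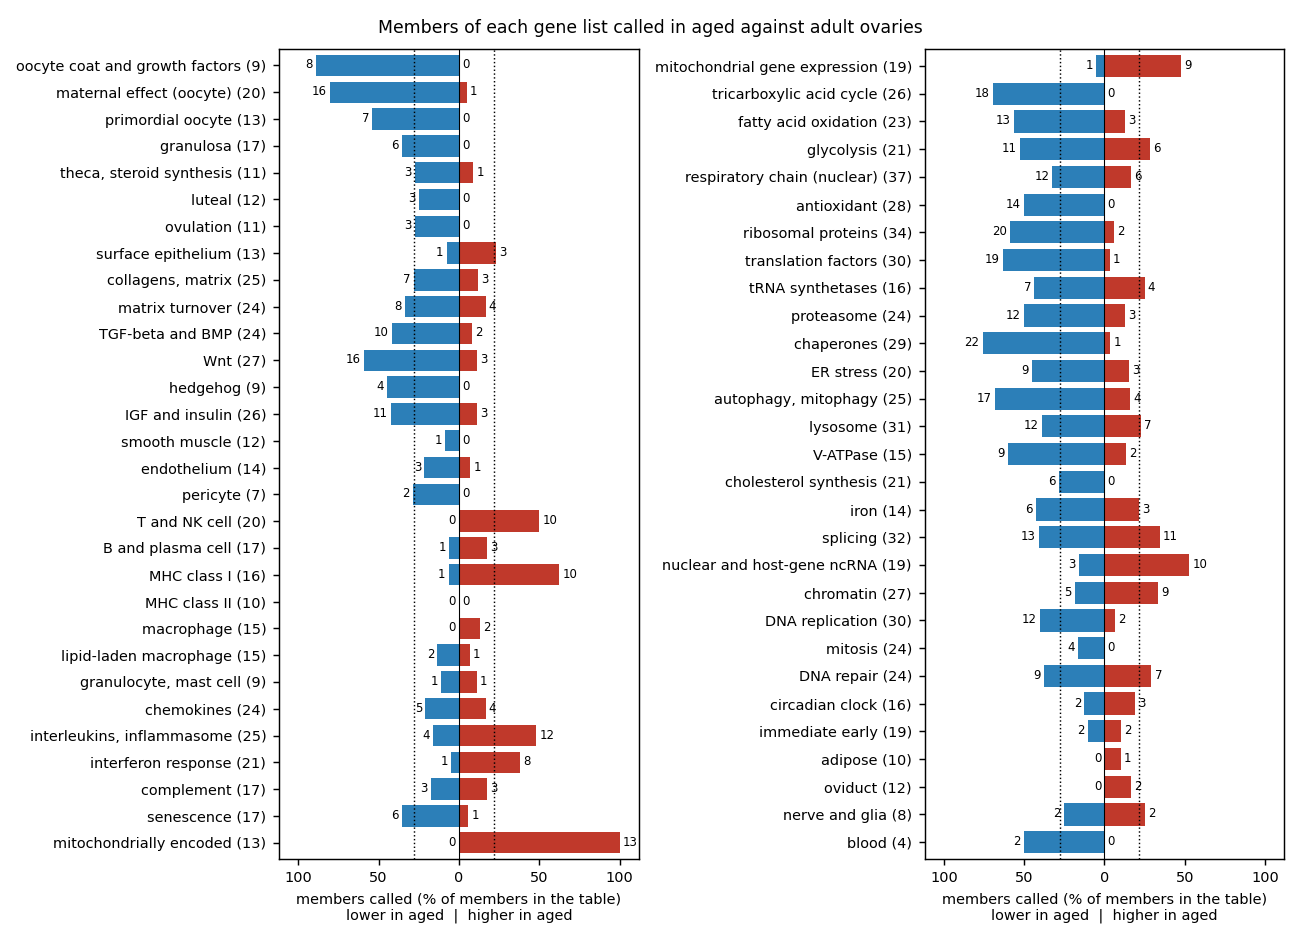
Share of each gene list's members called lower (blue, to the left) or higher (red, to the right) in aged ovaries, with the number called at the bar's end and the members in the table in parentheses; dotted lines mark the shares over all genes, 27.9% lower and 21.6% higher. All 13 mitochondrially encoded genes were called higher, and 22 of 29 chaperones and 18 of 26 genes of the tricarboxylic acid cycle were called lower.

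Genes encoded in mitochondrial DNA rose. All 13 protein genes of the mitochondrial genome rose (median 2.13 SD), and in all 13 the aged libraries lay above the adult ones. mt-Co2, a subunit of cytochrome c oxidase, had scores of 1.95, 1.90, 1.63 and 1.89 in the aged libraries, against -0.63, 0.37, -0.58 and -0.36 in the adult libraries (2.14 ± 0.23 SD, adjusted p 9.92e-04), and mt-Co3 had 1.83, 2.12, 1.29 and 1.82 in the aged libraries, against -0.43, -0.39, -0.41 and -0.01 in the adult libraries. Nuclear genes of the respiratory chain fell in 12 of 37 members and rose in 6, near the shares of the whole table. Ndufa4 of cytochrome c oxidase had -2.10, -1.98, -1.72 and -1.81 in the aged libraries, against 0.37, 0.31, 0.48 and 0.56 in the adult libraries (-2.33 ± 0.14 SD), and Uqcrfs1, the Rieske protein of complex III, differed by -2.38 ± 0.14 SD. Over all 31 genes of the mitochondrial chromosome in the table, 26 rose and none fell. The 13 transcripts had a median GC content of 37.1%.

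Factors that express the mitochondrial genome also rose, in 9 of 19 members, with 1 fall (3 without aged library 1, 0 without aged library 3 or 4; median 1.54 SD). Ssbp1, which coats single-stranded mitochondrial DNA, had 1.98, 2.38, 1.32 and 1.75 in the aged libraries, against -1.12, -0.83, -0.15 and -0.55 in the adult libraries (2.52 ± 0.28 SD). The nuclear regulators Nrf1 and Esrra, which drive genes of respiration, differed by 2.25 ± 0.23 and 2.44 ± 0.26 SD. Mterf3, a repressor of mitochondrial transcription, rose by 2.17 SD.

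Enzymes of the tricarboxylic acid cycle, which burns acetyl groups in mitochondria, fell in 18 of 26 members and rose in none (median -2.13 SD). The list's mean score was tight within each group, at -1.40 to -1.28 in the aged libraries, against 0.31 to 0.52 in the adult libraries. Dld, the dehydrogenase subunit shared by the pyruvate and oxoglutarate dehydrogenases, had -1.74, -2.01, -1.70 and -1.86 in the aged libraries, against 1.01, 0.49, 0.60 and 0.60 in the adult libraries (-2.503 ± 0.15 SD, adjusted p 1.60e-04). Citrate synthase, Cs, had -2.06, -0.59, -2.14 and -1.84 in the aged libraries, where library 2 stood above the other three, against 0.79, 1.02, 0.74 and 0.49 in the adult libraries (-2.42 ± 0.35 SD). The succinyl-CoA ligase subunits Sucla2 and Suclg1 fell by 2.46 and 2.44 SD.

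Fatty acid oxidation genes fell in 13 of 23 members and rose in 3 (median -2.07 SD). Glycolysis genes fell in 11 of 21 members and rose in 6. Acadvl, which starts the oxidation of long chains, scored -1.68, -2.01, -2.04 and -1.59 in the aged libraries, against 0.36, 0.48, 0.12 and 0.27 in the adult libraries (-2.14 ± 0.16 SD). Ppara, the nuclear receptor that turns this pathway on, was at its lowest value of -1.72 in 3 aged libraries and at -1.29 in aged library 3, against 0.49, 0.26, -0.08 and 0.38 in the adult libraries. Cpt1c, the brain form of the carnitine transferase, rose by 2.51 SD. In glycolysis, isoforms parted: Eno1, the common enolase, had -2.19, -2.12, -1.38 and -1.73 in the aged libraries, against 0.20, 0.05, 0.51 and 0.84 in the adult libraries, while Eno3, the muscle enolase, had 2.04, 1.88, 1.79 and 1.92 in the aged libraries, against -0.78, -0.83, -0.29 and -0.19 in the adult libraries. The fall was -2.25 ± 0.25 SD and the rise 2.43 ± 0.18 SD. Pgam1 fell by 2.47 SD.

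Antioxidant genes, which remove peroxides and keep glutathione and thioredoxin reduced, fell in 14 of 28 members and rose in none (median -1.74 SD). Prdx1, a cytosolic peroxidase, had scores of -1.45, -1.65, -1.87 and -1.67 in the aged libraries, against 0.64, 0.90, 0.45 and 0.81 in the adult libraries (-2.36 ± 0.15 SD, adjusted p 1.60e-04). Txnrd1, which reduces thioredoxin, had -2.32, -1.65, -1.92 and -1.57 in the aged libraries, against 0.71, 0.55, 0.77 and 0.25 in the adult libraries (-2.44 ± 0.21 SD). The glutathione peroxidase Gpx1 and the mitochondrial peroxidase Prdx3 differed by -2.46 ± 0.22 and -2.47 ± 0.18 SD. No aged library reached an adult one in any of these 4 genes. Members named from a list were those with its smallest p, so this separation was part of the choice. Groups did not overlap in 49.6% of all genes.

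Promoters of 3 genes of the list are shown because 14 members fell and the pathway's known activator, Nfe2l2, binds a described element. Gclm, which makes a glutathione precursor with its catalytic partner, fell by 2.17 SD and was chosen after its value was seen. The sequences are from RefSeq on GRCm38.p6, 250 bases before to 50 after the start site, and capitals mark the core TGACNNNGC, searched on both strands (GCNNNGTCA on the other). Txnrd1 is on chr10:82858956-82859255, Prdx1 on chr4:116685349-116685648 and Gclm on chr3:122245307-122245606, all on the plus strand.
Txnrd1: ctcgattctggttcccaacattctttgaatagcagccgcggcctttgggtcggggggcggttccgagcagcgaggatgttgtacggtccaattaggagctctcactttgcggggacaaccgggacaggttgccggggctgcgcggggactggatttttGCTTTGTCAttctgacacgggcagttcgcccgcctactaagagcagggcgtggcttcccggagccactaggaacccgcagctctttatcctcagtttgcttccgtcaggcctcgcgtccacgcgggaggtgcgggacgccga
Prdx1: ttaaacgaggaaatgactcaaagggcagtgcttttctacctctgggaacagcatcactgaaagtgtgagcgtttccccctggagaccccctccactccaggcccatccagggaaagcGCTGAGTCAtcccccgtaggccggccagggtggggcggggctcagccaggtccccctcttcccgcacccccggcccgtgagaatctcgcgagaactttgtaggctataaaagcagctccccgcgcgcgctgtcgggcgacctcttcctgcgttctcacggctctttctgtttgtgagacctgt
Gclm: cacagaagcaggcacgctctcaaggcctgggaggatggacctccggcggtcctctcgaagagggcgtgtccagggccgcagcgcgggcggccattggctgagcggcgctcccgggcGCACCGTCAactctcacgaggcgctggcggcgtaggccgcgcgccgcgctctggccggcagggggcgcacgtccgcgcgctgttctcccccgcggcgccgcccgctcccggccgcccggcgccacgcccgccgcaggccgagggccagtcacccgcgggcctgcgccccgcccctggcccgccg
The core was in 6 of 23 antioxidant genes with a promoter in the table (26.1%), against 14.0% of 27025 genes. Of these 6 genes, 4 fell (Gclm, Mgst1, Prdx1 and Txnrd1), and of the 17 without the core 7 fell. Nfe2l2 and Srxn1, the other holders of the core, were not called.

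Genes of translation were lower more often than higher. Of 34 ribosomal protein genes 20 fell and 2 rose (median -1.55 SD), of 30 translation factors 19 fell and 1 rose (median -2.07 SD), and of 16 tRNA synthetases 7 fell and 4 rose. The ribosomal count was 12 without adult library 3 and 13 without adult library 4, and list means were -1.45 to -0.997 in the aged libraries, with adult library 2 among them at -1.09, below the other adult libraries (-0.04 to 0.67). Rpl7 of the large subunit had scores of -1.73, -2.18, -1.71 and -1.79 in the aged libraries, against 0.28, -0.27, 0.75 and 0.94 in the adult libraries (-2.28 ± 0.26 SD). Rplp0 of the ribosomal stalk had -1.62, -1.71, -1.97 and -1.94 in the aged libraries, against 0.54, -0.43, 0.53 and 0.80 in the adult libraries. Ribosomal protein genes have many processed copies that can share their reads. Eif4g2, an initiation factor that works without the cap-binding protein, had -1.73, -2.29, -1.76 and -1.79 in the aged libraries, against 0.82, 0.75, 0.79 and 0.39 in the adult libraries (-2.58 ± 0.18 SD, adjusted p 1.60e-04). Eef2, which moves the ribosome along the message, differed by -2.35 ± 0.20 SD. The asparaginyl-tRNA synthetase Nars fell by 2.21 SD, and Farsa, a subunit of the phenylalanine enzyme, rose by 2.47 SD.

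Chaperone genes showed the largest share of falls among the lists of more than 20 genes. Of 29 chaperones 22 fell and 1 rose (median -2.04 SD). Hspa9, the mitochondrial HSP70, had -2.22, -1.96, -1.59 and -1.89 in the aged libraries, against 0.62, 0.52, 0.51 and 0.30 in the adult libraries (-2.40 ± 0.17 SD, adjusted p 1.63e-04). Cct4, of the ring that folds actin and tubulin, had -1.56, -2.30, -1.66 and -1.95 in the aged libraries, against 0.68, 0.11, 0.59 and 0.59 in the adult libraries. Proteasome genes fell in 12 of 24 members and rose in 3, a count between 0 and 5 when 1 library was left out (0 without aged library 2 or 4, 5 without adult library 3). Psmd8, of its regulatory cap, differed by -2.32 ± 0.20 SD. In the ER stress list 9 of 20 fell (5 without aged library 3) and 3 rose. The disulfide isomerase P4hb fell to -1.75, -2.18, -1.69 and -2.04 in the aged libraries, against 0.61, 0.21, 0.55 and 0.38 in the adult libraries, and Ddit3, the stress transcription factor CHOP, rose to 2.05, 2.19, 1.497 and 1.49 in the aged libraries, against -0.69, -0.95, -0.84 and 0.07 in the adult libraries (2.41 ± 0.27 SD).

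Autophagy and mitophagy deliver cell parts and mitochondria to lysosomes. Their genes fell in 17 of 25 members (11 without aged library 4) and rose in 4 (median -2.16 SD). Gabarap, which is joined to lipid on the growing autophagosome, had scores of -1.56, -1.499, -2.15 and -2.24 in the aged libraries, against 0.27, 0.28, 0.22 and 1.09 in the adult libraries (-2.32 ± 0.27 SD). Map1lc3a, of the same family, had -2.18, -1.45, -1.49 and -1.52 in the aged libraries, against 0.35, 0.01, 0.01 and 0.79 in the adult libraries. The autophagy receptor Tax1bp1 fell by 2.42 SD. Subunits of the V-ATPase, which acidifies lysosomes, fell in 9 of 15 members and rose in 2: Atp6ap2 had -1.84, -1.61, -1.88 and -1.86 in the aged libraries, against 1.28, 1.05, 0.09 and 0.48 in the adult libraries, and Atp6v0b rose by 2.12 SD.

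Lysosomal genes were divided, with 12 of 31 lower and 7 higher. The mean score of the list was 0.62 in aged library 1 and -0.97 to -0.79 in the other aged libraries, against -0.25 to 0.41 in the adult libraries. The count of falls was 7 without aged library 2 and 5 without aged library 3 or 4. Npc2, which carries cholesterol out of lysosomes, had -1.55, -1.53, -2.12 and -1.61 in the aged libraries, against 1.14, 1.13, 0.38 and 0.57 in the adult libraries (-2.51 ± 0.23 SD). Cathepsin A, Ctsa, rose to 2.30, 1.80, 1.66 and 1.69 in the aged libraries, against -0.76, -0.89, -0.57 and -0.11 in the adult libraries, and Tfeb, the transcription factor that drives lysosomal genes, rose by 1.92 SD (adjusted p 0.00255). Cholesterol synthesis genes fell in 6 of 21 members, near the 27.9% of all genes called lower, and rose in none, against 21.6% of all genes. There were 10 falls without aged library 2, 2 without aged library 3 or 4 and 3 without adult library 1. Idi1, an isomerase of that pathway, had -1.89, -0.95, -1.65 and -1.39 in the aged libraries, against 1.64, 1.39, 0.48 and 0.34 in the adult libraries. In iron handling 6 of 14 genes fell and 3 rose (1 without aged library 3). Slc40a1, the iron exporter ferroportin, fell by 2.29 SD, and Slc25a28, a mitochondrial iron importer, rose by 2.42 SD.

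Nuclear and host-gene noncoding RNAs rose in 10 of 19 members (6 without aged library 3) and fell in 3 (median 1.70 SD). Neat1, the scaffold of paraspeckles, had scores of 1.42, 1.80, 1.85 and 1.29 in the aged libraries, against -0.70, 0.15, -0.48 and -0.06 in the adult libraries (1.86 ± 0.23 SD). Gas5, a host of small nucleolar RNAs, had 1.21, 2.24, 1.26 and 1.48 in the aged libraries, against -1.18, -1.77, -0.21 and -0.33 in the adult libraries. Airn, an RNA antisense to the growth-factor receptor Igf2r, rose by 2.15 SD; without a stated strand setting its reads cannot be told from those of the overlapping gene. H19, an imprinted RNA, fell evenly, to -1.40, -1.45, -1.47 and -1.55 in the aged libraries, against 0.63, -0.25, 0.18 and 0.38 in the adult libraries (-1.70 ± 0.19 SD). Over the table, 23 of 65 bidirectional-promoter transcripts and 75 of 252 processed transcripts rose, shares of 35.4% and 29.8%, against 21.6% of all genes.

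Splicing genes were called often and in both directions, 11 of 32 higher and 13 lower. U2af2, which reads the polypyrimidine tract before a 3′ splice site, rose to 1.26, 2.26, 1.39 and 1.81 in the aged libraries, against -1.22, -1.17, -0.60 and -0.77 in the adult libraries (2.62 ± 0.26 SD). Sf3a1, of the U2 particle that joins it, fell to -2.30, -1.40, -1.72 and -1.96 in the aged libraries, against 0.59, 0.32, 0.10 and 0.43 in the adult libraries (-2.20 ± 0.22 SD). Chromatin genes rose in 9 of 27 members and fell in 5 (2 without aged library 3, 1 without aged library 4 and 3 without adult library 1). Setdb1, which methylates lysine 9 of histone H3, rose to 1.66, 1.95, 1.81 and 2.10 in the aged libraries, against -0.60, -0.41, 0.10 and -0.87 in the adult libraries, and the DNA methyltransferase Dnmt3b differed by 2.40 ± 0.27 SD. The sirtuin Sirt7 rose by 2.32 SD. Sirt1 did not pass, at -2.27, -3.21, 0.45 and -0.48 in the aged libraries, against 0.85, 0.54, 0.62 and 0.49 in the adult libraries.

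DNA replication genes fell in 12 of 30 members and rose in 2 (1 without aged library 2 or 4). Mcm4, of the replicative helicase, had -1.76, -2.49, -1.72 and -1.43 in the aged libraries, against 0.30, 0.18, 0.48 and 0.25 in the adult libraries (-2.15 ± 0.24 SD, adjusted p 0.00142), and Pola1, the catalytic subunit of the polymerase that starts each strand, had -2.11, -1.21, -1.42 and -1.53 in the aged libraries, against 0.56, 0.55, 0.22 and -0.16 in the adult libraries. Mitosis genes fell in 4 of 24 members (16.7%), below the 27.9% of all genes called lower, and rose in none. Their list mean was far lower in aged library 1 (-2.74) than in the other aged libraries (-0.73 to -0.03), against -0.46 to 0.83 in the adult libraries. The count was 2 without aged library 2, 3 or 4, 2 without adult library 3 and 11 in a fit of all 20 libraries. Ccna2, a cyclin of S phase and mitosis, fell to -2.31, -1.34, -1.45 and -1.65 in the aged libraries, against 0.40, -0.21, 0.95 and -0.16 in the adult libraries. Ccnb1, the mitotic cyclin, fell by 1.84 SD, with an adjusted p of 0.0882 without aged library 2.

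Promoters of 3 replication genes that fell are shown because E2F factors, which drive S-phase genes, bind a described site. Capitals mark TTTGGCGC or, on the other strand, GCGCCAAA. Mcm6 is on chr1:128359656-128359955 and Pola1 on chrX:93632106-93632405, both on the minus strand, and Mcm5 on chr8:75109259-75109558 on the plus strand (RefSeq, GRCm38.p6).
Mcm6: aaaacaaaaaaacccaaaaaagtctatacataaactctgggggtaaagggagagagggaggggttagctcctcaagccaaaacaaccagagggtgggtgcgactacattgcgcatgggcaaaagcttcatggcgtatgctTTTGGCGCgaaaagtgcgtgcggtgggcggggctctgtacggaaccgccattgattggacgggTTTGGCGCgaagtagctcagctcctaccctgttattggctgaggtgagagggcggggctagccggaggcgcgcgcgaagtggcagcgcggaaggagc
Mcm5: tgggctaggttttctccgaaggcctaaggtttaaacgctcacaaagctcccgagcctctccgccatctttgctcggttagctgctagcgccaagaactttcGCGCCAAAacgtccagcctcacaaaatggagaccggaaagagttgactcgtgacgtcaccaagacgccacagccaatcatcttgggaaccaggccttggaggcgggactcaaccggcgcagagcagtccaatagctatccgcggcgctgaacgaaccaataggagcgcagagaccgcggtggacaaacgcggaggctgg
Pola1: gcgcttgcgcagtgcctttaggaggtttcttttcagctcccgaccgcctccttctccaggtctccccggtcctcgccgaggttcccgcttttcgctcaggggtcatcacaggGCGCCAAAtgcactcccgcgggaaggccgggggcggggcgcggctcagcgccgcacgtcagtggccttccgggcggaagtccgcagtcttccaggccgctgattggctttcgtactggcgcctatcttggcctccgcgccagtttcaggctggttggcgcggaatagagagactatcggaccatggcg
The site was in 5 of 25 replication genes with a promoter in the table (20%), against 0.585% of 27025 genes. Mcm6, Mcm5 and Pola1 fell by 1.85, 1.68 and 1.86 SD (Mcm6 and Mcm5 were chosen after their values were seen), Mcm3 and Cdt1 with the site were not called, and 7 of the 20 genes without it fell.

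DNA repair genes rose in 7 of 24 members and fell in 9. Close relatives parted: Parp2 rose to 2.34, 2.26, 1.22 and 1.63 in the aged libraries, against -1.002, -0.78, -0.52 and -0.53 in the adult libraries (2.57 ± 0.28 SD), while Parp1, the main sensor of DNA breaks, fell to -1.87, -1.70, -1.11 and -1.60 in the aged libraries, against 0.35, 0.09, 0.35 and -0.24 in the adult libraries (-1.71 ± 0.21 SD). Trp53bp1, which steers double-strand breaks to end joining, rose by 2.34 SD. Clock genes rose in 3 of 16 members and fell in 2, counts that became 0 and 4 without aged library 3 and 1 and 0 without aged library 4. Per2 had 2.55, 0.81, 2.05 and 0.89 in the aged libraries, against -0.86, -0.12, -0.58 and -0.46 in the adult libraries (adjusted p 0.0733 without aged library 3), and Clock had -2.57, -1.16, -0.499 and -1.62 in the aged libraries, against 1.52, 1.49, 0.65 and -0.34 in the adult libraries (adjusted p 0.0505 without aged library 4). Time of day of collection is not given in the sources used here. Immediate early genes, which answer handling and injury within minutes, rose in 2 of 19 members (0 without aged library 4 and 5 without adult library 4) and fell in 2 (1 without aged library 1, 2 or 4). Klf6 fell by 2.28 SD.

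Markers of other cells that a dissected ovary can carry were called in both directions. Of 12 smooth muscle genes 1 fell (Lmod1, -1.82 ± 0.47 SD, with an adjusted p of 0.101, 0.104 and 0.115 without aged library 1, 2 or 4, while 4 fell without aged library 3), with list means of -1.61 to 1.49 in the aged libraries, against -0.52 to -0.20 in the adult libraries. Smtn, a contractile protein, was at -0.78 in aged library 4 and between 1.62 and 2.30 in the other aged libraries, against -0.96, -0.85, -0.73 and -0.78 in the adult libraries (adjusted p 0.0609, and 0.0024 without aged library 4). Of 14 endothelial genes 1 rose and 3 fell, with 8 falls without aged library 1 and 1 without adult library 2. Cdh5, the endothelial cadherin, had -1.61, -0.71, -2.14 and -1.78 in the aged libraries, against 1.63, 1.58, -0.03 and -0.499 in the adult libraries, and Egfl7 rose by 2.11 SD. Of 7 pericyte genes 2 fell (4 without aged library 2), Abcc9 by 1.96 SD. Of 12 oviduct genes 2 rose (1 without aged library 2 or 4), among them Ovgp1, which oviduct cells secrete, at 0.64, 0.26, 0.19 and 0.13 in the aged libraries, against -0.85, -0.74, -0.72 and -0.64 in the adult libraries. Of 10 adipose genes 1 rose, Fabp4 (1.47 ± 0.32 SD, with an adjusted p of 0.0646 without aged library 4). Oviduct list means were -0.25 to 0.43 in the aged libraries, against -0.80 to -0.33 in the adult libraries, and the part of such tissue in the results was not tested. Of 4 globin genes in the table, Hbb-bs fell by 2.11 SD and Hbb-bt by 1.73 SD (adjusted p 0.112, 0.066, 0.127, 0.0668 and 0.0563 without aged library 1, 3 or 4 or adult library 2 or 4), and the near-identical pair Hba-a1 and Hba-a2 did not pass. Of 8 nerve and glia genes 2 rose and 2 fell, and leaving out 1 library left 1 rise (without aged library 1, 3 or 4 or adult library 1 or 2) or 1 fall (without aged library 1, 2 or 4 or adult library 4). Prph, a neuronal intermediate filament, rose to 1.81, 2.11, 0.70 and 2.19 in the aged libraries, against -0.88, -0.73, -1.01 and -0.86 in the adult libraries. Th, which makes catecholamine precursors, and Ngfr, a neurotrophin receptor, fell by 0.88 and 1.82 SD.

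**Figure D4:**
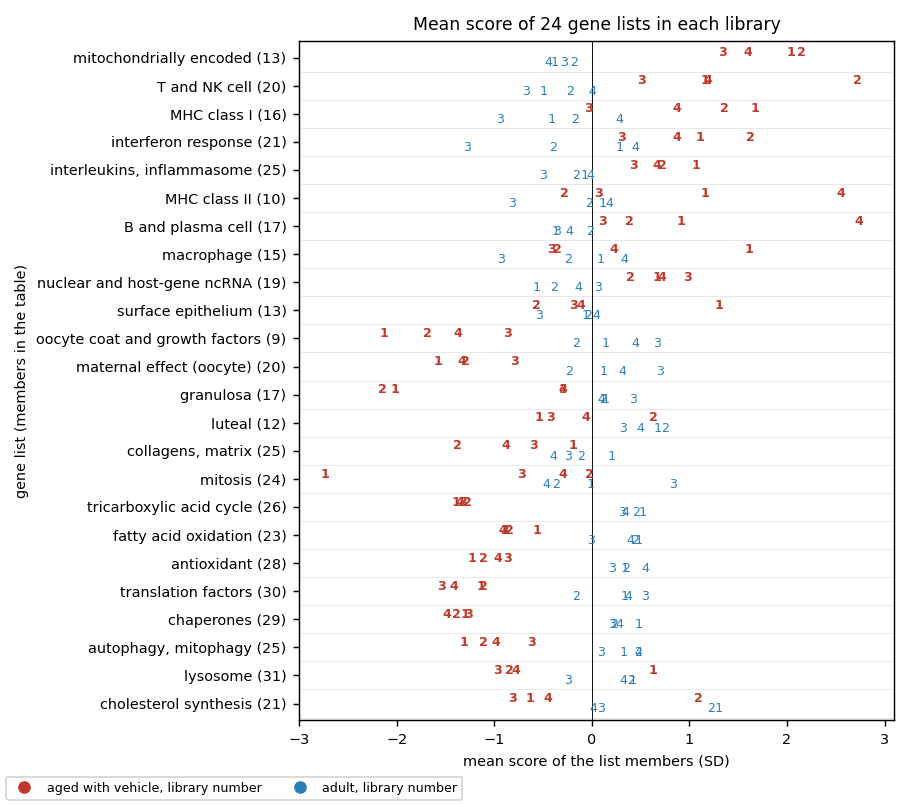
Mean score (SD, x axis) of the members of 24 gene lists (y axis, members in parentheses) in each library, drawn as the library's number, aged in red above adult in blue. Aged library 1 leads in macrophage genes (1.61) and trails in mitosis (-2.74), aged library 2 leads in T and NK cell genes (2.72) and aged library 4 in B and plasma cell genes (2.73), while the 4 aged libraries lie together in the tricarboxylic acid cycle (-1.40 to -1.28).

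Aged libraries differed more from each other than adult libraries did. Over all genes the SD among 4 libraries had a median of 0.867 for aged ovaries and 0.447 for adult ovaries, and 13133 of 17651 genes (74.4%) had the larger SD in aged ovaries. The aged variance was over 10 times the adult one in 4946 genes (28.0%), and the reverse held in 1572. The called genes shown next were picked by the largest ratio of aged to adult SD, so a small adult SD was part of the choice. Tmcc1, an ER protein, had 3.45, 1.30, 0.81 and 1.24 in the aged libraries, against -0.35, -0.32, -0.31 and -0.33 in the adult libraries (2.03 ± 0.54 SD, adjusted p 0.0447, and 0.111, 0.0887 and 0.118 without aged library 2, 3 or 4), and Tmem263 had -3.32, -1.65, -0.78 and -0.96 in the aged libraries, against 0.49, 0.38, 0.46 and 0.48 in the adult libraries (adjusted p 0.0372, and 0.114, 0.0774 and 0.09 without the same libraries). In such genes 1 aged library carried much of the distance.

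**Figure D5:**
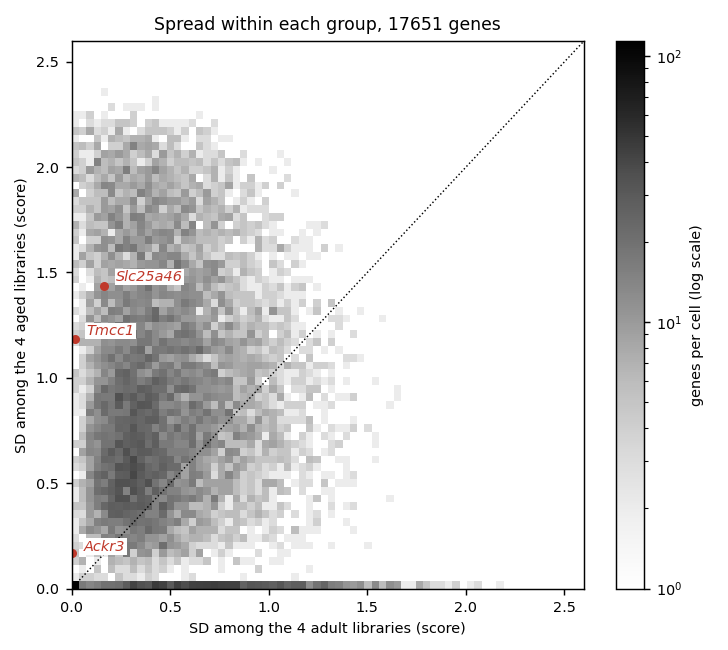
SD of each gene among the 4 aged libraries (y axis) against its SD among the 4 adult libraries (x axis), with genes counted in cells on a log grey scale and the dotted line marking equal SD. Of 17651 genes 13133 lie above the line, Ackr3 has a small SD in both groups, Tmcc1 and Slc25a46 have a large SD in aged ovaries and a small one in adult ovaries, and genes along the x axis are at their lowest value in all aged libraries.

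Some large differences did not pass. Genes shown here had the largest absolute differences among those not called, a choice that itself picks genes whose libraries were far apart. Slc25a46, a mitochondrial outer membrane protein, had -3.61, -0.88, -0.36 and -1.23 in the aged libraries, against 0.82, 0.73, 0.45 and 0.78 in the adult libraries (-2.22 ± 0.66 SD, adjusted p 0.0573, and 0.0139 without aged library 1). Mier1, a corepressor, had -0.97, -3.50, -0.17 and -1.21 in the aged libraries, against 0.71, 0.92, 0.73 and 0.57 in the adult libraries (adjusted p 0.0581, and 0.0301 without aged library 2). Cebpe, a factor of granulocyte maturation, had 3.13, 2.30, 0.07 and 0.76 in the aged libraries, against -0.42, -0.73, -0.54 and -0.80 in the adult libraries (adjusted p 0.0549). Altogether 825 genes had groups that did not overlap and were not called, and 819 were called with groups that did.

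Genes at their lowest value in every aged library and in no adult library numbered 674, of which 229 were protein coding and 549 were called. Only 16 genes showed the reverse. Gpr63, an orphan receptor, was at -1.70 in all 4 aged libraries, against 1.02, 1.75, 0.77 and -0.15 in the adult libraries. Dnmt3c, a rodent DNA methyltransferase that silences transposons in male germ cells, was at -1.22 in all 4 aged libraries, against 0.63, 0.69, 1.89 and 1.57 in the adult libraries. Ifi44l, an interferon-induced gene, was at -0.82 in all 4 aged libraries, against 1.58, 2.22, 0.97 and 0.97 in the adult libraries, opposite to most called members of the interferon list. With no counts such a score says only that the gene is listed at its lowest value.

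Position on the genome was uneven as well. On the X chromosome 219 of 583 genes fell (37.6%) and 90 rose (15.4%), with a median difference of -1.08 SD. Autosomes came close to it: on chromosome 18, 154 of 418 genes fell (36.8%) and 66 rose (15.8%), with a median of -0.997 SD. On chromosome 12, 33.7% fell and 15.3% rose. Chromosome 17, which carries the MHC genes, had the highest share of rises among the autosomes (31.1%, 251 of 808 genes; 20.4% fell), with a median of 0.76 SD. No test was made of these shares, and the GC content of chromosomes was not taken out of them.

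Levels in the other groups put these differences in place as a description. The mean score of the oocyte coat list was -2.13 to -0.86 in aged libraries, -0.82 to 0.41 in aged libraries with HEP14, 0.88 to 1.35 in young libraries and -0.16 to 0.67 in adult libraries. For T and NK cell genes it was 0.51 to 2.72 in aged libraries, -0.19 to 0.00 in aged libraries with HEP14, -1.005 to -0.77 in young libraries and -0.67 to 0.01 in adult libraries. For the tricarboxylic acid cycle it was -1.40 to -1.28 in aged libraries, -0.01 to 0.72 in aged libraries with HEP14, 0.22 to 0.56 in young libraries and 0.31 to 0.52 in adult libraries. The mitochondrially encoded genes stood at 1.34 to 2.15 in aged libraries, -0.68 to 0.09 in aged libraries with HEP14, -0.78 to -0.51 in young libraries and -0.45 to -0.18 in adult libraries. In these 4 lists no aged library lay within the range of the adult libraries, and aged libraries with HEP14 overlapped the adult range in all 4. The 4 were taken from lists whose aged and adult means did not overlap, so that separation was part of the choice. In other lists, among them collagens and matrix, MHC class I, interferon response, macrophage and lysosomal genes, aged and adult means overlapped.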

How the data were processed

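Whole mouse ovary gave total RNA (TRIzol extraction), read on an Illumina NovaSeq instrument, per the labels' protocols. The authors deposited 1 table of scores per gene and library, each gene scaled to a mean of 0 and an SD of 1 over 20 libraries, as the values show. The submitters' processing notes name DESeq2 1.20.0, HISAT2 2.0.5 and featureCounts 1.5.0-p3. The sources used here do not give their roles, the unit scaled, the genome build, the strand setting or the choice of genes. Read depth is unknown, and no value is a fold change.

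The difference of group means (aged minus adult) was put to a test built on limma 3.58.1 (R 4.3.3). The variance of each group was moderated separately, its degrees of freedom were combined by Satterthwaite's formula, and p-values were adjusted over 17651 genes by Benjamini and Hochberg's method, with calls at 0.05. The function was tested on simulated data, where unchanged genes passed an unadjusted 0.05 somewhat more often than that share, and more often than with unmoderated variances. Gene IDs were matched to the GENCODE annotation of GRCm38 (17643 matched) and to RefSeq promoters. A value was called tied lowest where several libraries shared a gene's minimum within 1e-09.

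Members and lists were chosen with earlier results of these data known. Named genes were the 12 largest called differences in each direction without overlap or ties, the 4 smallest p in each of 59 lists, a panel, and genes of unequal spread or at their lowest in 1 group; some of these are not reported here. Alternatives changed the variance model, scaling, ties, the replicate block and the libraries used; adjustment for GC content and transcript length was added after the data were seen.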

Additional observations from a re-analysis of the deposited data

Results flagged for a closer look

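In 436 groups of 4 values, 26 held a library far from the other three by Dixon's criterion, where chance gives about 1 in 20 (21.8). No cause was tested for any of them.

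Of 6 such values among list means, adult library 3 gave 4: 0.42 for granulosa genes, -0.42 for genes of lipid-laden macrophages, -0.0068 for fatty acid oxidation and -0.25 for lysosomal genes. Aged library 1 gave the other two, 0.72 for genes of lipid-laden macrophages and 0.62 for lysosomal genes.

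Of 20 such values among genes, aged library 1 stood apart for Scd2 (-2.39), Map1lc3a (-2.18) and Tfeb (2.40). Aged library 2 did so for Eif4g2 (-2.29), Atp6ap2 (-1.61), Mcm6 (-0.81) and the alpha globin gene Hba-a2 (-1.80). Aged library 3 did so for Nlrp9b (-1.34), Figla (-0.84), Ppara (-1.29) and Npc2 (-2.12); in the first 3 of these the other aged libraries shared the gene's lowest value. Aged library 4 did so for Th (-0.79), where the other aged libraries shared the lowest value. Among adult libraries, library 1 stood apart for Pet100 (-1.28), library 2 for Wnt2 (0.31), Jchain (0.92) and Cct4 (0.11), library 3 for Gpx1 (0.0801), and library 4 for mt-Co3 (-0.0103), Eif4g2 (0.39) and Gabarap (1.09).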

How the results depend on the processing

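Calls numbered 8742 as reported, 6326 with unmoderated variances (6324 of them shared) and 11789 in a fit of all 20 libraries with 1 variance per gene (8590 shared). With 1 library left out they numbered 6362 (without aged library 4) to 8461 (without adult library 4). No clear pairing by replicate number was seen, though such correlations cannot exclude one. Deviations of same-numbered libraries correlated at 0.026, 0.050, 0.155 and -0.087, where 0.155 was the largest value of any aged and adult pair. A fit with the replicate block gave 9000 calls, 8171 of them shared. The difference in tied lowest genes was 1679.67 to 2260 with 1 library left out, where 0.0571 is the smallest exact permutation p. Of 254 called genes among 298 chosen for naming, 191 stayed called under every alternative and 0 changed sign. Of 2006 list counts under alternatives, 328 moved by over 1.5 times, most often without aged library 4 (40 of 118), and the cause was not tested. The medians of 7 of 59 lists changed sign (theca and steroid, ovulation, lipid-laden macrophage, granulocyte and mast cell, DNA repair, clock and chromatin genes).

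Differences that changed sign were all of genes not called. With 1 library left out, the difference ranged from -0.64 to 0.12 SD for Hba-a1, from -0.14 to 0.68 SD for Hba-a2, from -0.66 to 0.34 SD for Foxl2, from -1.04 to 0.034 SD for Ddx4, from -0.15 to 0.49 SD for Lhcgr, from -0.18 to 0.31 SD for Pgr, from -0.47 to 0.56 SD for Igf1 and from -0.38 to 0.29 SD for Gpnmb. With library medians set equal it was 0.13 SD for Hba-a1 and 0.26 SD for Foxl2, and with GC content and length adjusted it was -0.54 SD for Hba-a2 and 0.011 SD for Ddx4. The cause was not tested.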
